A study of Solanum pimpinellifolium with 6 samples.

Results

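The 3 RNA-seq libraries labelled nontransgenic sibling, of 6 in the series, were described here as a set of tomato fruit transcriptomes 2 days post anthesis (dpa). They were chosen by their label alone and not by any measured value. The other 3 libraries came from RNAi line 207, a transgenic line of the same strain that the series design describes as having defects in fruit set and in abscisic acid synthesis. All plants were Solanum pimpinellifolium, the wild currant tomato, strain LA1589, 2 months old and grown in a phytotron. The sibling carries wild type as its genotype label, and the fruits of both groups came from hand-pollinated flowers. The labels do not say how many fruits or plants went into a library. Extraction is described in the labels for shoot tips, while the sample labels name fruits.

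A tomato fruit at this stage is an ovary that pollination has just committed to growth. In the days after pollination the ovary wall and the ovules pass through a phase of intense cell division, before the longer phase of cell expansion, and auxin and gibberellin are the hormones best known for driving it. The tissue is green and photosynthetic, still carries the developing ovules, and is far from the ethylene-driven program of ripening. The values used were FPKM, fragments counted per gene and scaled by transcript length and library size, so levels of different genes are given per length.

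The target of the RNAi construct was read first, because it checks the labels. Solyc07g053570, a zinc finger family protein (SlZFP2 by memory of the literature), had 10.3, 9.03 and 7.45 FPKM in the libraries labelled line 207, against 2.89, 3.05 and 0.00147 FPKM in those labelled sibling. The gene was thus lower in the libraries labelled sibling, the opposite of the direction that silencing in line 207 would give. No other value of line 207 was used, and the 3 libraries are called sibling replicates 1 to 3 as labelled. With a single group no difference was tested, and the 3 values show only the spread among these libraries.

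Values were listed for 34723 genes, and 13194 of them (38%) were at 0 in all 3 libraries. A value of at least 1 FPKM was found for 15477, 15251 and 15319 genes in sibling replicates 1, 2 and 3, and for 12312 genes in all 3. The mean reached 10 FPKM for 8627 genes, 100 FPKM for 1299 and 1000 FPKM for 97. Summed FPKM came to 1054762, 1065660 and 1179445. Read totals were not used, and low values gave only a rough relative depth of 1, 0.805 and 0.863.

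Replicate 1 stood apart from both others. Over the 16814 genes with a mean of at least 1 FPKM, the correlation of log2(FPKM + 1) across genes, which are not independent replicates, was 0.808 between replicates 2 and 3, and 0.780 between replicate 1 and either of them. Of the 8627 genes with a mean of at least 10 FPKM, 1058 (12.3%) were at least 2-fold apart between replicates 2 and 3, against 1637 (19%) between replicates 1 and 2 and 1763 (20.4%) between replicates 1 and 3. Replicate 1 held the value farthest from the median of the 3 for 3802 of these genes (44.1%), against 2303 for replicate 2 and 2522 for replicate 3. It was also the deepest by the rough measure, and the part of depth in this was not tested. Values are therefore given library by library, in the order of replicates 1, 2 and 3.

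Carpel and fruit genes were present in the libraries, whose sample labels name fruits. Names below that are not in the deposited descriptions were paired from memory of the literature. Solyc02g089200, the MADS-box factor TM29 that belongs to the floral organ identity genes, had 492, 533 and 585 FPKM in replicates 1, 2 and 3, the highest mean of all 1940 genes described as transcription factors. The related TM5 (Solyc05g015750) had 156, 164 and 181 FPKM, and TAG1 (Solyc02g071730), the AGAMOUS gene of stamen and carpel identity, had 16.7, 21.9 and 24.4 FPKM. TM29 and TM5 kept their highest value within 25% of their lowest, while TAG1 spread more.

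Solyc07g055920, the AGAMOUS-like TAGL1 of fruit development, had 28.2 FPKM in replicate 1 and 30.9 FPKM in replicate 3, but 0.000922 FPKM in replicate 2. Of the 2 genes listed here as CRABS CLAW, the carpel and nectary factor, Solyc05g012050 had 14.6, 47.4 and 51 FPKM. The other, Solyc01g010240, was at 0 in replicates 1 and 2 and at 3.05 FPKM in replicate 3. Genes outside this list are also described as CRABS CLAW-like, among them Solyc06g073920 with 157, 241 and 229 FPKM. Of the 11 carpel, ovule and fruit genes listed, 7 had at least 1 FPKM in all 3 libraries. Only 4, namely TM29, TM5, TAG1 and Solyc05g012050, had at least 10 FPKM in all 3. The 11 genes summed to 724, 782 and 916 FPKM, and TM29 and TM5 made up most of this sum. The sum therefore says little of the other members, among them the ovule genes. Solyc02g083950, described as WUSCHEL-related, was at 0 throughout.

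The B-class petal and stamen genes were also present. TAP3 (Solyc04g081000) had 80.1, 102 and 110.3 FPKM and TM6 (Solyc02g084630) had 67.5, 45.7 and 47.5 FPKM, whereas Solyc08g067230 (TPI) stayed under 3 FPKM and Solyc06g059970 was at 0 in replicates 1 and 2. The 4 genes summed to 149, 151 and 161 FPKM. The pollen gene LAT52 (Solyc10g007270, described as a pollen allergen) had 7.58, 37.2 and 39.4 FPKM and so was lowest in replicate 1. Which cells carry these transcripts was not measured, and in bulk tissue fewer cells of a type and less RNA per cell cannot be told apart.

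Shoot tip markers, checked because of the extraction label, were mixed, with 3 of 5 listed at 0. Solyc11g071380 (CLV3), Solyc06g074350 (described as self-pruning) and Solyc03g118160 (described as FLORICAULA/LEAFY-like) were at 0 in all 3 libraries. The knotted-like homeobox genes Solyc02g081120 and Solyc04g077210 had 2.12, 2.53 and 5.84 FPKM and 4.49, 17.9 and 17 FPKM. In replicates 2 and 3 Solyc04g077210 was thus of the same order as TAG1. The 5 genes summed to 6.61, 20.4 and 22.8 FPKM, again lowest in replicate 1. Ripening genes were low, with no value above 5 FPKM: Solyc10g080210 (polygalacturonase A) was at 0, Solyc01g095080 (an ACC synthase) stayed at 0.443, 0.554 and 0.507 FPKM, and Solyc03g031860 (phytoene synthase 1) exceeded 1 FPKM in replicate 3 alone, at 3.06 FPKM. The highest ripening value belonged to Solyc09g089580 (E8, described as ACC oxidase-like), which had 4.49 FPKM in replicate 1 and under 0.01 FPKM in both others. The 4 ripening genes summed to 4.94, 0.554 and 3.57 FPKM.

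**Figure D1:**
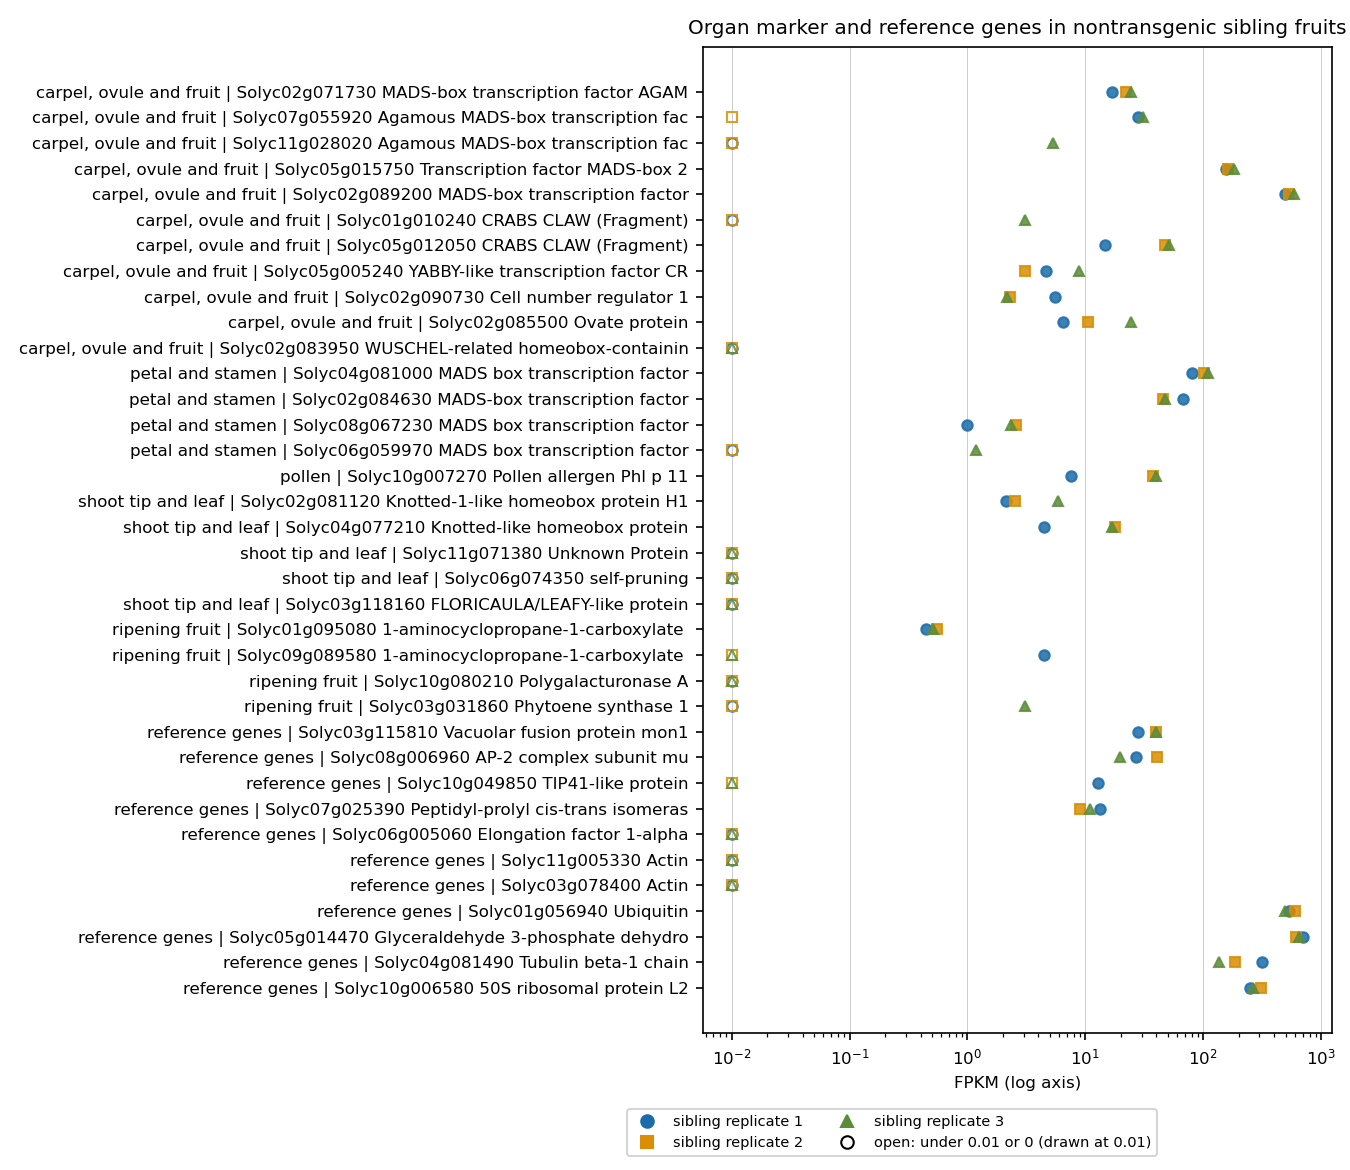
FPKM on a log axis of each organ marker and reference gene, by list, gene identifier and deposited description, with 1 point per sibling library. TM29 (Solyc02g089200) sits between 492 and 585 FPKM, and no ripening gene lies above 5 FPKM. Of the 5 shoot tip genes, 3 lie at the open points that stand for values under 0.01 or 0.

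Genes often used to normalise qPCR differed among themselves. Ubiquitin Solyc01g056940 had 530.3, 606 and 499 FPKM and glyceraldehyde 3-phosphate dehydrogenase Solyc05g014470, an enzyme of glycolysis, had 708, 615 and 649 FPKM. Elongation factor 1-alpha Solyc06g005060 was listed at 0.000375, 0.00066 and 0.000705 FPKM and the actins Solyc11g005330 and Solyc03g078400 under 0.1 FPKM in every library, although every cell uses such proteins. Other members of the same families were well above that, with 411, 482 and 465 FPKM for elongation factor 1-alpha Solyc06g009970 and 33.2, 25.5 and 26.9 FPKM for actin Solyc11g008500. TIP41-like Solyc10g049850 had 12.9 FPKM in replicate 1 and 0.000318 and 0.0002 FPKM in the others. A value at or near 0 is therefore reported only as listed, library by library and without a mean.

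The transcriptome was concentrated in few genes. The 30 genes of highest mean held 37.9, 36.8 and 43.9% of summed FPKM (39.5% ± 3.8, SD, n = 3), the first 10 held 31.4, 28.1 and 37.1%, and the first 4 alone held 24.7, 20.5 and 29.9%. A share of 50% of the sum was reached with 120, 143 and 76 genes. Without those 4 genes it took 401, 365 and 395 genes.

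The 4 leading genes all carry the description unknown protein. Solyc11g051210 had 121486, 124215 and 198764 FPKM, and Solyc11g027650 had 19827, 58558 and 119012 FPKM. Solyc07g026660 was the steadiest of them at 43752, 35984 and 34916 FPKM. Solyc06g024270 had 75793 FPKM in replicate 1 and was listed at 0 in both others, so its rank rests on 1 library. Together they summed to 260858, 218757 and 352692 FPKM in the 3 libraries.

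Ranks 5 to 10 held a metallothionein, a defensin-like protein, another gene of unknown description, a proteinase inhibitor, a cell wall protein and a gene described as Cytochrome P450 like_TBP. Solyc09g010800, a type 2 metallothionein, which is a short cysteine-rich protein that binds metal ions, had 9491, 16903 and 22763 FPKM and was lowest in replicate 1. Solyc07g006380, a defensin-like protein of the antimicrobial peptide family, had 12406, 15152 and 16766 FPKM (14775 ± 2205, SD, n = 3). Solyc07g007250, an inhibitor of metallocarboxypeptidases, had 11689.6, 15502 and 9974 FPKM. Solyc09g097770, described as a cell wall protein, had 7318, 12564 and 11426 FPKM. The unknown gene Solyc01g058500 had 17962, 9519.6 and 16569 FPKM and was lowest in replicate 2, and the Cytochrome P450 like_TBP gene Solyc06g005210 had 11404, 11144 and 7597 FPKM and was lowest in replicate 3. The 5 genes with that last description held 1.86, 1.42 and 1.07% of summed FPKM. The defensin-like gene varied least of the 6, and the metallothionein most.

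Genes of translation, protein folding and photosynthesis stood further down the list. Solyc10g078630, the 40S ribosomal protein S28, had 5032, 5734 and 7931 FPKM. Solyc01g111170, a peptidyl-prolyl cis-trans isomerase that helps proteins fold, had 3017, 3659.8 and 4379.6 FPKM, and Solyc01g099770, the translationally-controlled tumor protein linked to growth, had 2629, 3769 and 4547 FPKM. All 3 were lowest in replicate 1 and highest in replicate 3. Among the few steady genes at this level were 2 nuclear small chains of Rubisco, the carbon-fixing enzyme. Solyc02g085950 had 3451, 3819 and 3461 FPKM and Solyc03g034220 had 3041, 3508 and 3059 FPKM. A further small chain, Solyc02g063150, was lower and not steady, at 1001, 798 and 604 FPKM. Ferredoxin I Solyc10g075160, which carries electrons from photosystem I, had 2072, 4209 and 4169.7 FPKM, and the lipid-transfer protein Solyc10g075100, of a family that moves lipids to the surface, had 3808, 2854 and 3114 FPKM.

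Of the 30 genes, 7 were described as unknown, 8 fell in the defence and proteinase inhibitor class, 3 were steady and 3 variable by the thresholds given further on. The highest value lay in replicate 1 for 8 of them, in replicate 2 for 13 and in replicate 3 for 9. The list was largely common to the libraries: 21 genes were in the first 30 of all 3 libraries, and 25, 27 and 28 of the 30 were in the first 30 of replicates 1, 2 and 3. The next in rank, just outside the list, were the type 2 metallothionein Solyc04g058150 with 1759.8, 2873 and 3686 FPKM and Solyc07g006560, described as a hypersensitive response assisting protein, with 2257, 3928 and 1650.4 FPKM.

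**Figure D2:**
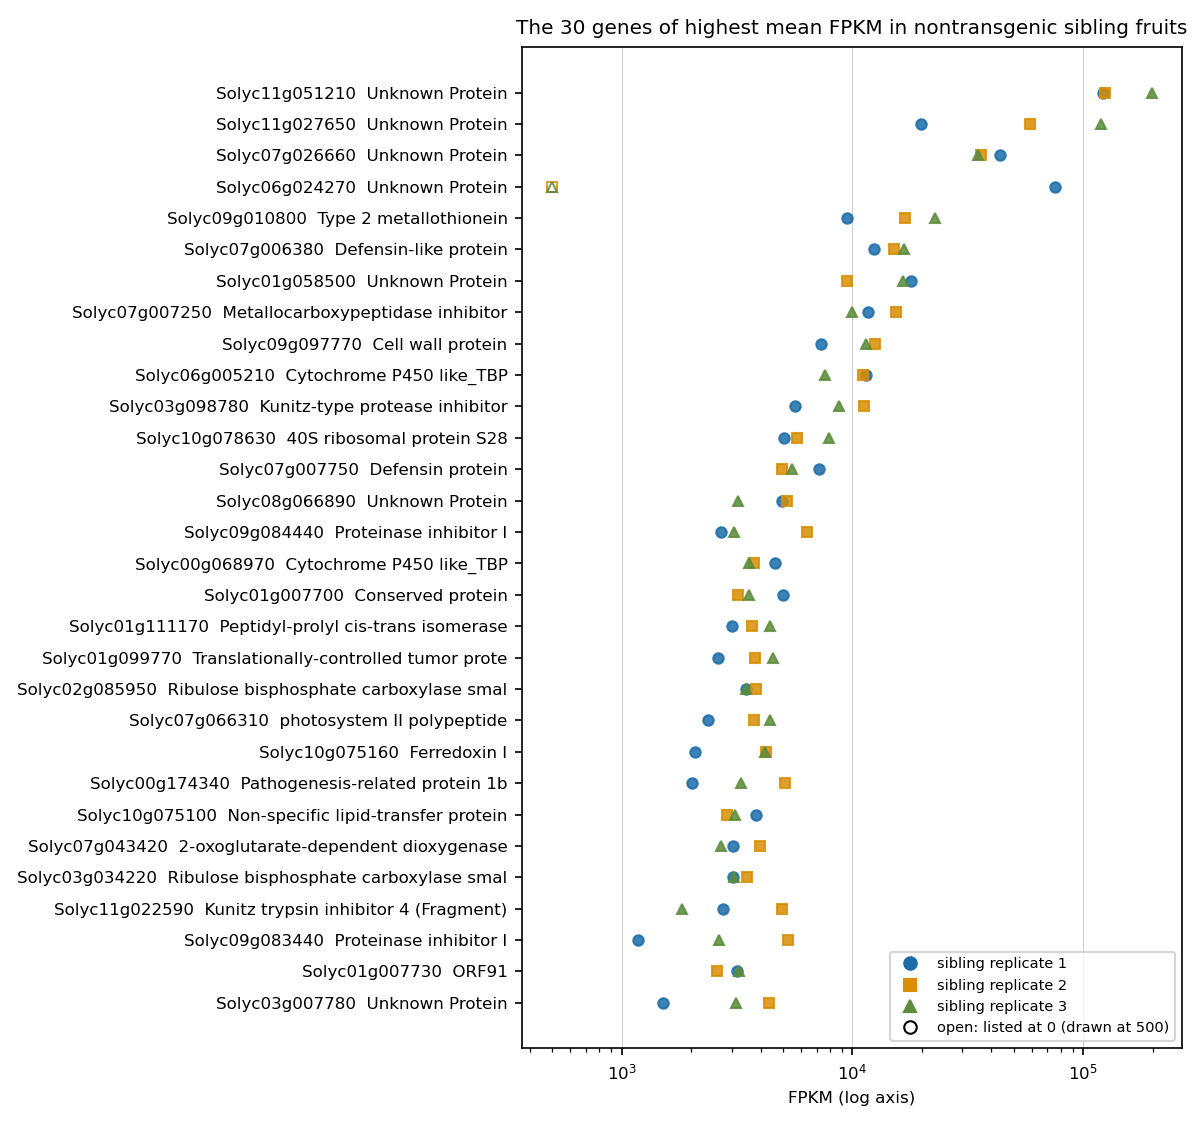
FPKM on a log axis of the 30 genes of highest mean, in order of rank, with 1 point per sibling library and the deposited description. The metallothionein Solyc09g010800 spans 9491 to 22763 FPKM, while the Rubisco small chain Solyc02g085950 lies between 3451 and 3819 FPKM, and the open points of Solyc06g024270 mark 0 in replicates 2 and 3.

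Each gene was placed in the first of 30 classes whose words its description held, and a gene with none was called other. Genes of unknown description held the largest share, 33.9, 29.7 and 38.2% of summed FPKM (33.9% ± 4.26, SD, n = 3), and 7787 genes belong to it. Without the 4 leading genes the share was 11.9%. Genes matched by no class held 20.6, 21.1 and 18.3%. In all 3 libraries the unknown class stood above this remainder, and the remainder above every class with a description. The first order rested on the 4 leading genes. Without them the unknown class held 12.1, 11.6 and 11.9% and the remainder 27.4, 26.5 and 26.2%.

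Among described classes, defence and proteinase inhibitors had the highest mean share, with 6.69, 9.12 and 6.17% of summed FPKM (7.33% ± 1.57, SD, n = 3). Cytosolic ribosomal proteins held 5.45, 6.65 and 6.35% (6.15% ± 0.621). The 2 overlapped, since in replicate 3 the ribosomal share was the larger. Their order also depended on the class words, which were corrected after values had been seen. With the words as first written defence held 5.61% and cytosolic ribosomal proteins 6.08%, and with a gene counted in every class it matched they held 7.36 and 7.52%. Both were above metallothioneins and redox proteins in every library, at 2.22, 3.06 and 3.38%, of which the single gene Solyc09g010800 made up 51.3%. Photosystem and electron transport genes held 2.64, 2.54 and 2.46%, and kinases, phosphatases and signalling genes held 2.59, 2.62 and 2.32%. The 2445 genes of that last class held about as much as the 215 photosystem genes.

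**Figure D3:**
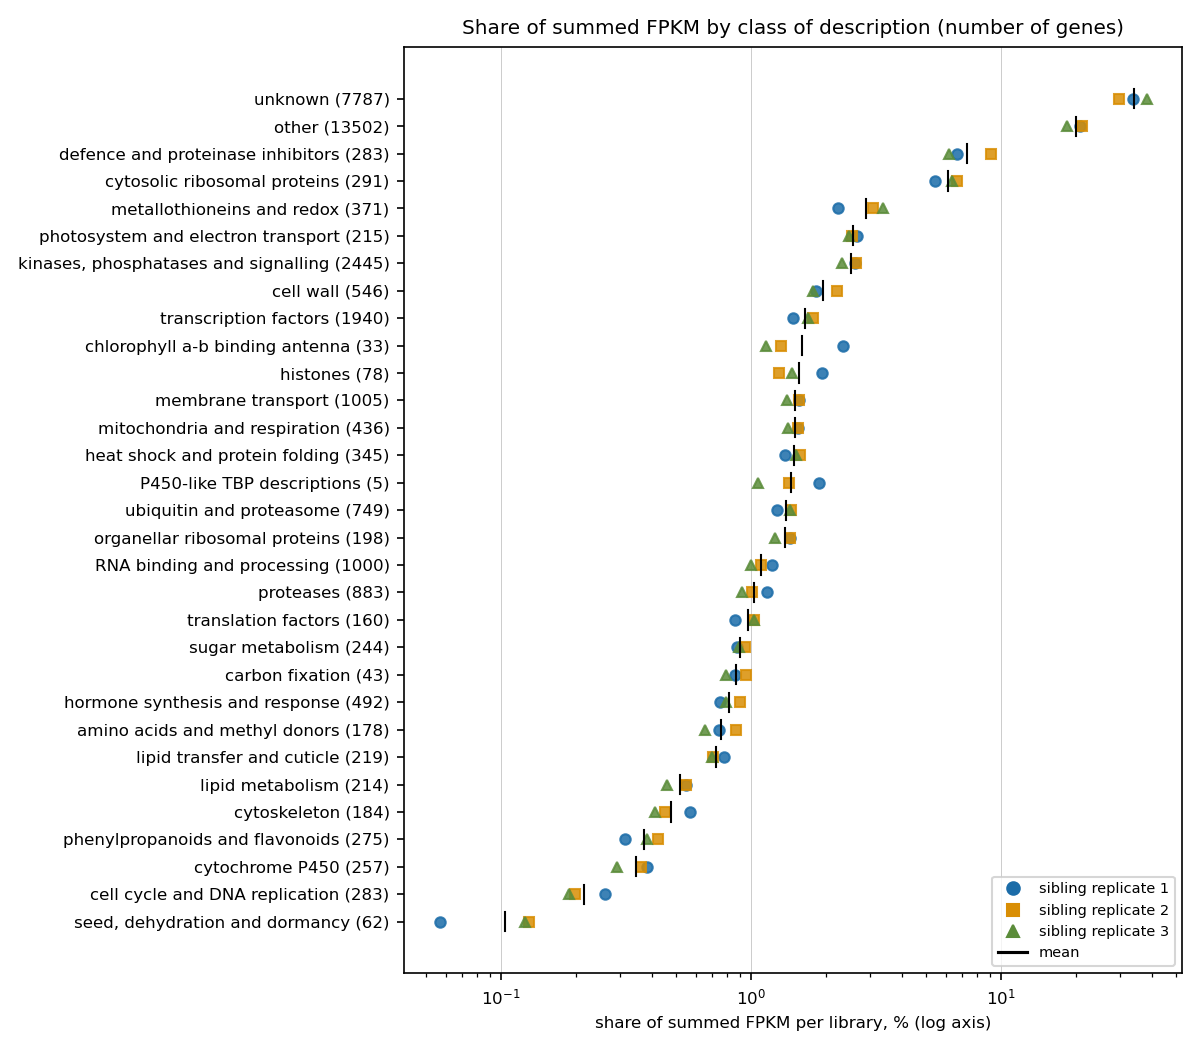
Share of summed FPKM per library on a log axis for each class of description, with the number of genes in brackets, 1 point per sibling library and a bar at the mean. The unknown class lies between 29.7 and 38.2%, and the shares of the photosystem class nearly coincide, while the chlorophyll a-b binding antenna separates replicate 1 at 2.33% from 1.32 and 1.15%.

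Within the defence class, the families differed in their spread. The 16 genes described as defensins, 4 of them with a mean of at least 10 FPKM, gave 2.04, 1.98 and 1.97% of the sum, nearly the same in each library, although without the leading gene they summed to 9092, 5981 and 6499.7 FPKM. Proteinase inhibitor I and chymotrypsin inhibitor genes, of the class that tomato makes in wounded leaves, summed to 10112, 21428 and 13501 FPKM, and Kunitz-type inhibitors summed to 10319.8, 18002 and 11913 FPKM, so both were highest in replicate 2. Proteinase inhibitor II genes, the other wound-induced inhibitor family, summed to 2215, 1622 and 1673 FPKM and were highest in replicate 1, with 1 gene making up 99.7% of the sum. Solyc09g084440, a proteinase inhibitor I, had 2694, 6328 and 3064 FPKM, and the Kunitz gene Solyc03g098780 had 5659, 11279.8 and 8766 FPKM. Pathogenesis-related protein 1b Solyc00g174340 had 2023, 5099 and 3290.1 FPKM, with the same order of the libraries.

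Some members of this class were high in only some libraries. A chitin-binding lectin, Solyc03g116200, had 2662 and 3394 FPKM in replicates 1 and 2 and was listed at 0 in replicate 3. Chitinase Solyc10g055790, which digests fungal cell walls, had 868, 50.6 and 93.8 FPKM. Of the 101 defence genes with a mean of at least 10 FPKM, 19 (18.8%) were variable and 6 (5.94%) steady, against 9.66 and 18.2% of all genes.

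Translation genes gave a broad share spread over many genes. Of 291 cytosolic ribosomal protein genes, 192 had a mean of at least 10 FPKM, with a median of 253 FPKM, against 27.6 FPKM for all 8627 genes at that level. Replicate 1 held the lowest value for 149 of the 192 (77.6%), against 41.3% of all genes at that level. The 60S genes summed to 20559, 25602 and 26409.6 FPKM and the 40S genes to 20627, 25891 and 28494 FPKM. The class of organellar ribosomal proteins, which serve plastids and mitochondria, leaned the other way and held 1.44, 1.43 and 1.24%. In this class 52 of 100 genes were highest in replicate 1 and 31 lowest there, against 34.5 and 41.3% of all genes. Its leading gene, the 30S ribosomal protein S19 Solyc02g082000, had 1006, 1097 and 1092 FPKM.

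Light-harvesting genes were high in replicate 1. The 28 antenna genes with a mean of at least 10 FPKM encode the proteins that hold chlorophyll around the photosystems, and all 28 had their highest value in replicate 1, against 34.5% of all genes at that level. The sum of the class was 24589.6, 14066 and 13561 FPKM. Solyc02g070940 had 2046, 1277 and 1171 FPKM and Solyc03g005760 had 1908, 941 and 825 FPKM, but Solyc10g006230 was steady at 1248, 1126 and 1181 FPKM. Near-identical copies share reads in such families, so the split among members is less certain than the sum.

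Genes of the photosystem cores were mostly highest in replicate 1 too. Of those with a mean of at least 10 FPKM, 12 of 16 photosystem I (75%) and 17 of 28 photosystem II genes (60.7%) were highest in replicate 1. The share was 34.5% for all genes at that level. Photosystem I genes summed to 8009, 6656 and 6039 FPKM and photosystem II genes to 9222, 9579.8 and 10057 FPKM. Solyc07g066310, a photosystem II polypeptide, had 2364, 3741 and 4402 FPKM and was lowest in replicate 1, and without it the photosystem II genes summed to 6858, 5839 and 5656 FPKM, highest in replicate 1. Photosystem I subunit V Solyc07g066150 had 2236, 1473 and 1587 FPKM and was highest there. Some entries described as proteins that plastids encode differed widely between the libraries. Photosystem Q(B) protein Solyc02g021290 had 389.9, 156 and 1183 FPKM, the P700 apoprotein Solyc06g009950 had 66.6 FPKM in replicate 1 alone, and the CP43 apoprotein Solyc12g027550 had 61.2 FPKM in replicate 2 alone.

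Cell division genes were present at moderate levels and tended to be highest in replicate 1. The 78 histone genes, whose proteins package new DNA, held 1.91, 1.3 and 1.45% of summed FPKM. Of the 47 with a mean of at least 10 FPKM, 30 (63.8%) were highest in replicate 1, 4 (8.51%) in replicate 2 and 13 (27.7%) in replicate 3. Of all genes at that level, 34.5, 31.2 and 34.3% were. Histone H2A Solyc01g099410 had 1647, 792 and 1043 FPKM and histone H3 Solyc10g008910 had 770.0, 325 and 366 FPKM. The histone H4 genes Solyc06g075830, Solyc06g075850, Solyc06g075930 and Solyc06g075960 were listed with the same 3 values, 1230, 952 and 1348 FPKM, so they cannot be told apart.

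Cell cycle and DNA replication genes held a small share, 0.259, 0.198 and 0.186%. Cyclin D1 Solyc05g006050, of the cyclins that start the division cycle, had 97, 76.9 and 94.6 FPKM, and cyclin D3-1 Solyc04g078470 had 58.3, 31.4 and 27.4 FPKM. The replication licensing factor MCM3, Solyc02g070780, which loads the DNA helicase, had 64, 44 and 43.6 FPKM, and the sliding clamp PCNA, Solyc06g076660, had 66.6, 68.4 and 48.2 FPKM. Of the 78 genes with a mean of at least 10 FPKM, 42 (53.8%) were highest in replicate 1, against 34.5% of all genes at that level. Tubulins, the building blocks of the spindle and the cortical microtubules, summed to 3511, 2479 and 2034 FPKM, and the alpha chain Solyc04g077020 had 1106, 800.2 and 669 FPKM.

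Cell wall genes were led by 1 gene. Solyc09g097770 made up 49.2% of a class that held 1.82, 2.21 and 1.77%. Xyloglucan endotransglucosylase/hydrolase genes, which cut and rejoin the wall's tethers during growth, summed to 1487, 1201 and 788 FPKM, and Solyc07g052980 among them had 809.6, 449.8 and 268 FPKM. Pectinesterases, which strip methyl groups from pectin, summed to 1776, 1121 and 965 FPKM, with Solyc03g083770 at 258, 19 and 21.3 FPKM. Expansins, which loosen the wall, summed to 654, 700.2 and 639 FPKM. The pectinesterase sum was highest in replicate 1, as were 11 of the 20 members with a mean of at least 10 FPKM (55%, against 34.5% of all genes). The xyloglucan enzymes' sum was highest there through Solyc07g052980, since without it they summed to 678, 751 and 520.2 FPKM. Only 4 of 13 such members (30.8%) were highest in replicate 1, close to the 34.5% of all genes. The expansin sums were close across the libraries. Aquaporins, the water channels of expanding cells, summed to 5365, 4849 and 4844 FPKM. That sum was highest in replicate 1 through Solyc06g074820, since without this gene they summed to 3147, 3269 and 3859 FPKM, highest in replicate 3.

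Hormone genes were among the least steady. Genes described as 1-aminocyclopropane-1-carboxylate oxidase, a name that covers the last enzyme of ethylene synthesis and many relatives, summed to 1089.9, 3080.2 and 3438 FPKM. Solyc02g036350 had 447, 1669 and 1920.1 FPKM and Solyc07g049550 had 24.2, 294 and 362 FPKM. Both were lowest in replicate 1. ACC synthases, the enzyme before it, summed to only 23.5, 33.2 and 27.9 FPKM.

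Gibberellin-regulated genes ran the other way. These small cysteine-rich proteins summed to 2487, 1802 and 1339 FPKM, with Solyc02g089350 at 368, 123 and 117 FPKM. Aux/IAA and auxin responsive genes, among them repressors of auxin signalling, summed to 452, 657 and 696 FPKM. Auxin response factors, which bind their target genes, summed to 609, 689 and 628 FPKM. Auxin response factor 2, Solyc03g118290, was among the steadiest, at 99.1, 103 and 102 FPKM, while auxin response factor 9, Solyc03g121060, had 21.6, 66.1 and 67.9 FPKM.

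Transcription factors as a class held 1.47, 1.77 and 1.69% of summed FPKM, and of the 421 with a mean of at least 10 FPKM, 236 (56.1%) were lowest in replicate 1, against 41.3% of all genes. WRKY factors, best known from defence, summed to 595, 882 and 946 FPKM, and ethylene responsive factors to 1307, 1934 and 1965 FPKM. MADS-box factors varied less, at 1259.6, 1343 and 1536 FPKM. The 4 genes described as YABBY factors, which set the outer side of lateral organs, summed to 458, 511 and 548 FPKM. Solyc06g073920, described as YABBY-like and CRABS CLAW-like, led at 157, 241 and 229 FPKM. The listed CRABS CLAW gene Solyc05g012050 is not in this sum.

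Other groups moved between the libraries in like ways. Late embryogenesis abundant proteins, made in drying seeds and stressed tissue, summed to 499.8, 1231 and 1296 FPKM. Heat shock proteins, which hold other proteins in shape, summed to 2496, 3498 and 3502 FPKM. Metallothioneins summed to 12379.5, 20999.5 and 27977 FPKM. All 3 groups were lowest in replicate 1. Single genes set replicate 1 high: the oxalate oxidase-like germin Solyc07g041720 had 1451, 27.7 and 22.9 FPKM, the thiazole biosynthetic enzyme Solyc07g064160, which makes part of vitamin B1, had 1333, 156 and 157 FPKM, and the glycine-rich RNA-binding protein Solyc01g109660 had 1436, 236 and 256 FPKM. The pollen marker LAT52, low in replicate 1, moved with the groups that were low there, and its part in them was not tested.

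**Figure D4:**
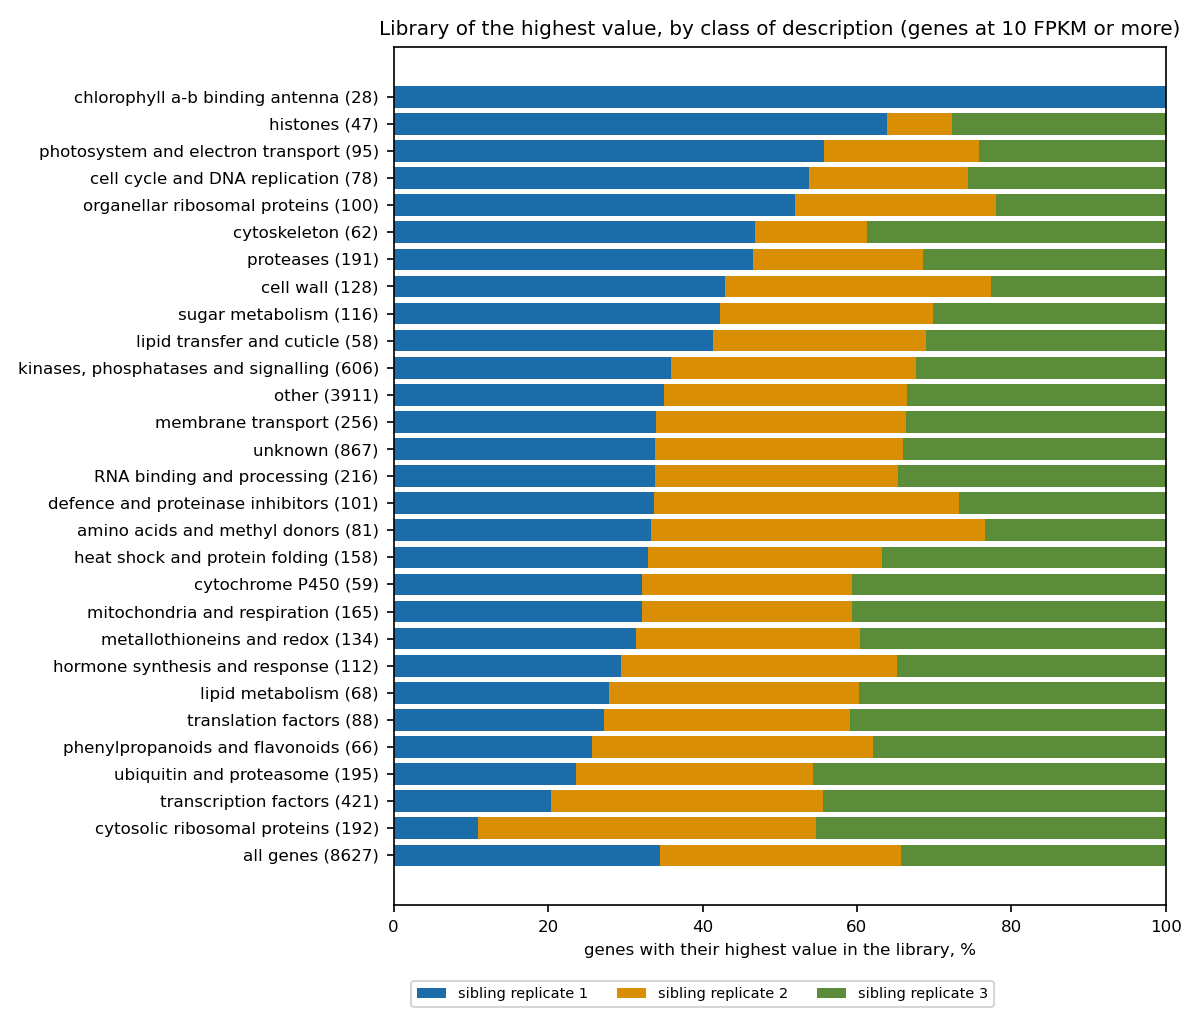
Share of genes with a mean of at least 10 FPKM whose highest value lay in each sibling library, for every class with at least 20 such genes and, at the bottom, all genes. All antenna genes were highest in replicate 1, against 34.5% of all genes, while 10.9% of the cytosolic ribosomal protein genes and 20.4% of the transcription factors were.

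The class leanings counted below held when the libraries were rescaled, but not every order did. At the same sum, histone H4 genes highest in replicate 3 fell from 5 to 0 of 11. Cytosolic ribosomal genes highest there fell from 87 to 48 of 192. With the libraries brought to the same sum or scaled by median ratio, the antenna genes highest in replicate 1 stayed at 28 of 28, the histone genes were 38 and 33 of 47, and the cell cycle genes were 47 and 44 of 78. Cytosolic ribosomal genes lowest in replicate 1 were 125 and 141 of 192, and transcription factors 207 and 222 of 421. Of all 8627 genes, 3386 and 3278 were then highest in replicate 1, and 3048 and 3287 lowest. Without replicate 1, the antenna share would be that of replicates 2 and 3 alone, 1.32 and 1.15%.

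Steadiness was judged on the 8627 genes with a mean of at least 10 FPKM. A gene was called steady where its highest value exceeded its lowest by at most 25%, and variable where it was at least 4 times the lowest or the lowest was under 0.1 FPKM. By this 1572 genes (18.2%) were steady and 833 (9.66%) variable, and the median coefficient of variation was 23.8%. Steady genes made up 14.1% of genes at 10 to 30 FPKM, 21.5% at 30 to 100, 26.4% at 100 to 300 and 26.2% above 300 FPKM. Variable genes made up 12.5, 7.24, 4.13 and 5.84% of the same levels. Each class is therefore set beside all genes at its own mix of levels.

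Of the classes with at least 20 genes at this level, translation factors had the largest share of steady genes. Among 88 translation factors 36.4% were steady, against 19.5% of all genes at the same levels, and among cytosolic ribosomal proteins 29.2% were, against 24.6%. Classes outside translation exceeded all genes by more than the ribosomal proteins did. Sugar metabolism had 26.7% against 19.1%, RNA binding and processing 25% against 17.8%, and cytoskeleton 24.2% against 18.1%. Mitochondria and respiration had 25.5% against 20%, and proteases 24.1% against 19%. Ubiquitin and proteasome genes, at 19.5% against 19%, and organellar ribosomal proteins, at 23% against 22.3%, were close to all genes. Eukaryotic initiation factor 5A Solyc12g010060, which helps the ribosome pass hard stretches, had 688, 690.5 and 787 FPKM. Elongation factor 1-gamma Solyc06g011280 had 189, 192 and 189 FPKM. Above 300 FPKM, a cut chosen after the values had been seen, the lowest coefficients of variation belonged to the 40S ribosomal protein S7-like Solyc06g069090 with 512, 519 and 528 FPKM, the 14-3-3 protein Solyc04g012120, a phosphoprotein-binding adaptor, with 322, 317 and 312 FPKM, and the 30S ribosomal protein S5 Solyc04g074300 with 557, 574 and 560.2 FPKM.

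The lowest coefficients of all were 0.318% for an aldo/keto reductase, Solyc09g082730, at 34.5, 34.5 and 34.7 FPKM, and 0.345% for an NADH flavin oxidoreductase, Solyc07g007870, at 108, 109 and 109 FPKM. These are the extremes of 8627 genes with 3 values each, and say little of the single gene. Of the classic reference genes, the GAPDH and ubiquitin genes given above were steady by this rule, while tubulin beta-1 Solyc04g081490 spread over 318, 186 and 136 FPKM.

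Variable genes had their largest share among genes of unknown description. Among these 867 genes 24.8% were variable, against 9.63% of all genes at the same levels. The figure was 19% against 8.87% for lipid transfer and cuticle genes, 18.8% against 8.13% for defence, 18.8% against 10.1% for hormone genes and 17.9% against 5.8% for the antenna. It was 16.8% against 8.34% for photosystem and electron transport genes, although the share of that class was nearly the same in each library. Mitochondria and respiration had 12.7% against 8.47%, and cytosolic ribosomal proteins 6.77% against 6.03%. Steady genes were few among hormone genes, at 5.36% against 17.6%, and among defence genes, at 5.94% against 21.1%. They were also few among phenylpropanoid and flavonoid genes, at 6.06% against 18.9%, and cytochrome P450 genes, at 6.78% against 17.1%. Photosystem genes had 8.42% against 20.7%, and cell wall genes 8.59% against 19.5%. The lipid-transfer protein Solyc10g075110 had 62.1, 442 and 670.2 FPKM, although its neighbour in number, Solyc10g075100, had kept between 2854 and 3808 FPKM.

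**Figure D5:**
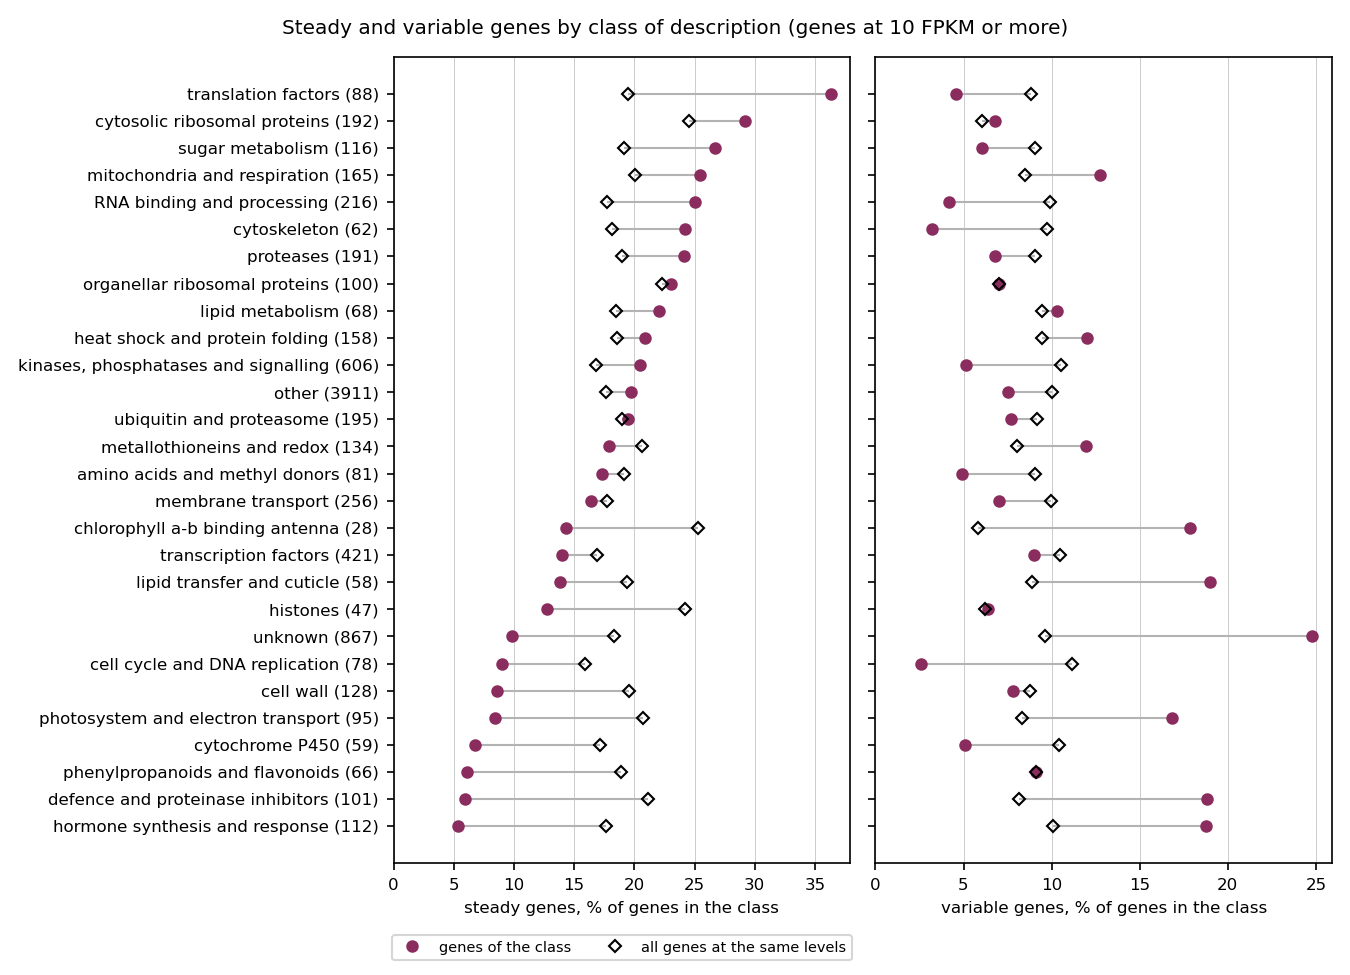
Percentage of steady (left) and variable (right) genes in each class with at least 20 genes of mean 10 FPKM or more, as filled points, beside the percentage among all genes at the same levels, as open diamonds. Translation factors lead the steady side at 36.4%, and genes of unknown description lead the variable side at 24.8%.

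Many variable genes were listed at or near 0 in 1 library. Of the 8627 genes, 333 had a value under 0.1 FPKM in at least 1 library, and 135 of these (40.5%) were of unknown description, against 10% of all 8627. The next 2 counts were taken over all 34723 genes with values, whatever their mean, and so are not parts of the 333. In 263 genes 1 library was near 0 and both others were at least 10 FPKM, in replicate 1 for 110, in replicate 2 for 81 and in replicate 3 for 72. Conversely, 393 genes reached 10 FPKM in 1 library with both others near 0, and the mean of such a gene can lie under 10 FPKM. Solyc08g066930, of unknown description, had 3856 FPKM in replicate 1 and was listed at 0 in the others, and Solyc00g011160 had 2328 FPKM in replicate 2 alone.

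Replicate 1 lay farthest from the median for 418 of all 833 variable genes (50.2%), against 44.1% of all 8627 genes. Without values near 0 this leaning to replicate 1 was stronger. Of the 500 variable genes with no value near 0, replicate 1 lay farthest from the median for 293, replicate 2 for 94 and replicate 3 for 113. Leaving replicate 1 out left 362 variable genes, against 579 without replicate 2 and 516 without replicate 3, and leaving it out gave 4303 steady genes, against 3255 and 3358. A pair of libraries has more steady and fewer variable genes than 3 by construction.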

How the data were processed

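RNA of 3 libraries labelled nontransgenic sibling was analysed, with 3 libraries of RNAi line 207 used only for the target gene. The labels' protocols name a stranded mRNA library kit, and biological replication is stated in the series design. The labels do not say whether they came from separate plants. The single deposited table holds 1 column for each library, with genes in rows. Its values were read as FPKM, since they are fractional and the tools TopHat 1.3.2 and Cufflinks were used, per the submitters' processing notes. For the genome build, annotation and scaling no statement is given in the sources used here. Cufflinks divides shared reads between overlapping or near-identical genes, and FPKM of short transcripts are the least certain. Of 34727 rows, 4 without values were left out. The reference gene table matched 0 identifiers, so no coordinates or sequences are given.

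Depth per library is unknown. The relative depth is the most frequent ratio between low values, and only 45 of 2328 genes for replicate 2 and 38 of 2424 for replicate 3 fell in the narrow bin that gave it, so it is rough.

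With Python 3.11.15, pandas 2.3.3 and numpy 2.4.6, genes were ranked by mean FPKM and assigned to 30 classes by words of the deposited description. Spread was the ratio of highest to lowest value and the coefficient of variation, tested on simulated data with known steady and variable genes. No test was run, since there is 1 group. The members, gene lists and thresholds were chosen with earlier results of these data known. The class words were corrected and the family lists written after values had been seen. Genes named by rule were the 30 of highest mean, up to 4 leading members and the most variable member of each class, the 12 of lowest and 12 of highest coefficient of variation, the marker and reference genes, and the target. Family members and the steadiest and most variable genes above 300 FPKM were chosen after values had been seen. Not all are described. Alternatives were other filters, scalings and class rules, the leading genes left out, and each library left out. Family sums without the leading member were added after values had been seen.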

Additional observations from a re-analysis of the deposited data

How the results depend on the processing

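No paired analysis was possible because the results come from no test and from 1 group. Leaving out the leading gene lowered the share of the 30 leading genes to 30.5% (39.5% with all), and leaving out the 4 leading genes, chosen after seeing the data, lowered it to 20.5%. Without the leading member the unknown class held 23.8%, metallothioneins and redox proteins 1.44% and photosystem genes 2.24%. Without the 4 leading genes the unknown class held 11.9%, defence 9.72%, cytosolic ribosomal proteins 8.22%, metallothioneins and redox proteins 3.87%, photosystem genes 3.41%, kinases and signalling 3.35% and histones 2.08%. Counting a gene in every class it matched gave 7.52% for cytosolic ribosomal proteins and 2.86% for kinases and signalling. With the class words as first written, an alternative added after seeing the data, defence held 5.61%. The antenna share was 1.23% without replicate 1, against 1.6% with all 3 libraries.

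With the limit on the mean at 50 FPKM there were 631 steady and 129 variable genes, and with it at 1 FPKM there were 5210 variable genes, where low values are the least precise. Scaling the libraries gave 1512 to 1580 steady and 828 variable genes, and ratios of FPKM + 1 gave 744 variable genes. Leaving out a library gave 3255 to 4303 steady genes and 362 to 579 variable genes, which also reflects that 2 values spread less than 3. The count of variable genes was lower by over 1.5 times without replicate 1 (362) and without replicate 3 (516). Depth is unknown, so the precision of low values cannot be stated.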

Other observations

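Carbon and nitrogen metabolism, not described so far, was carried by enzymes of central pathways. Sugar metabolism genes held 0.874, 0.947 and 0.894% of summed FPKM in sibling replicates 1, 2 and 3. Fructose-bisphosphate aldolase Solyc02g084440, an enzyme of glycolysis and carbon fixation, had 444, 943 and 1238 FPKM and was lowest in replicate 1, while the glyceraldehyde-3-phosphate dehydrogenase Solyc04g009030 stayed at 700.3, 683 and 626 FPKM. Amino acid and methyl donor genes held 0.746, 0.869 and 0.652%, led by Solyc08g066880, described as a methylthioadenosine and S-adenosylhomocysteine nucleosidase of methionine recycling, with 2034, 2731 and 1808 FPKM. Asparagine synthetase Solyc01g079880, which makes a nitrogen transport compound, had 159, 287 and 571 FPKM, and serine hydroxymethyltransferase Solyc05g053810 had 345, 393 and 379.6 FPKM.

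Phenylpropanoid and flavonoid genes held 0.312, 0.423 and 0.382% of summed FPKM. Phenylalanine ammonia-lyase Solyc09g007900, the entry enzyme of the pathway, had 153, 246 and 279.8 FPKM, and chalcone isomerase Solyc05g052240 had 97.9, 252 and 351 FPKM. Solyc11g013110, described as an anthocyanidin synthase, had 124, 199 and 274 FPKM. In fatty acid synthesis, acyl carrier protein Solyc01g067730 was steady at 937, 899 and 1024 FPKM. Among respiratory genes, cytochrome c Solyc01g103220 had 564, 722 and 621 FPKM. No difference between the libraries was tested.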
